A study of Mus musculus with 11 samples.

Results

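Genes of mitosis and the spindle were examined in sorted mouse lymphocytes measured by bulk RNA sequencing. The set held 39 genes, listed by symbol from the known machinery of chromosome segregation and cell division, out of 57186 gene entries in the count table. All libraries came from untreated Cd3giCreRosa26stopZsGreen mice aged 14 days. In these mice, by the name of the line, Cre is driven from the gene for CD3 gamma, a chain of the T cell receptor complex, and it switches on the fluorescent protein ZsGreen from the Rosa26 locus once a stop cassette is cut out. Cells therefore carry ZsGreen when they or their ancestors have made Cre, whatever they make when sorted. The groups were lung group 2 innate lymphoid cells (ILC2) without ZsGreen (ZsGreen-negative, n = 5), lung ILC2 with ZsGreen (ZsGreen-positive, n = 3) and thymic CD4 and CD8 double negative 3 (DN3) thymocytes (n = 3). The labels do not give the ZsGreen status of the DN3 cells, nor whether cells of several mice were pooled. The labels do not tie replicates to different mice, so the p-values reflect spread among libraries, part or all of which may be technical.

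Total counts were 4495260 to 14424313 in ZsGreen-negative, 5762491 to 17627469 in ZsGreen-positive and 5951494 to 7745062 in DN3 libraries. All DN3 libraries carry one batch date, 17 October 2024, which no lung library shares, and for that reason every DN3 comparison is also one between batches: the batch and the tissue cannot be told apart. The lung libraries carry 2 September 2024 (ZsGreen-negative 1 to 4, ZsGreen-positive 1 and 2) or 8 April 2025 (ZsGreen-negative 5, ZsGreen-positive 3). Most defining markers followed the labelled cell types. Ptcra and Rag2, which serve the pre-T cell receptor and its gene rearrangement, had 0 counts in every lung library. Il1rl1, Klrg1, Areg and Il13 of ILC2 had 0 counts in every DN3 library. Summed levels of 13 ILC2 markers were 12555 to 15087, 11886 to 14093 and 1514 to 1565 CPM (counts scaled by library size, the level unit throughout) in the ZsGreen-negative, ZsGreen-positive and DN3 libraries. Of these markers 12 were called lower and 1 higher in DN3 cells. The 10 DN3 markers, all called higher in DN3 cells, summed to 1439 to 1588, 1404 to 1584 and 8049 to 8289 CPM in the same order. In the lung fit, 2 of 6 tested DN3 markers were called higher in ZsGreen-positive cells. Of 7 markers of later thymocytes, 4 were called higher and 2 lower in DN3 than in lung cells, and their sum was 70.5 to 72 CPM in DN3 against 39 to 89.3 CPM in lung libraries. Among these, Cd4, Cd8a and Cd8b1 measured 2.85, 3.79 and 4.38 CPM on average in DN3 libraries, and Ccr9 42.6 CPM. Markers of mature alpha-beta T cells summed to 195 to 228 CPM in DN3 against 8.30 to 23.2 CPM in lung libraries, of which Cd3d, a CD3 chain that DN3 cells are also known to express, made up 194 CPM on average in DN3. The part of later thymocytes and T cells in the values of the members was not tested.

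Mitosis is run by Cdk1 bound to cyclins A and B, which the kinases of the Polo and Aurora families join as chromosomes condense and attach to the spindle. The spindle checkpoint holds the anaphase-promoting complex back until every kinetochore is attached, and Cdc20 then lets that complex degrade cyclin B and securin. Most genes of this machinery are transcribed in G2 and mitosis, through CHR elements bound by the MuvB complex and nearby CCAAT boxes bound by NF-Y. Earlier genes of DNA replication are known for E2F sites. DN3 thymocytes rearrange the T cell receptor beta gene, and those that succeed divide fast after pre-T cell receptor signalling. ILC2 are known to expand in the lung in the first weeks of life.

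Promoter sequences were taken from RefSeq (GRCm38.p6), with 250 bases before and 50 bases after each gene start. They covered 31 of the 39 members. The 250 bases before the start are shown for 6 members whose levels are described below: Cdk1 (chr10:69352913-69353162, minus strand), Cdc20 (chr4:118437344-118437593, minus strand) and Ube2c (chr2:164769679-164769928, plus strand), which hold a CHR close to the start, Ccnb1 (chr13:100786487-100786736, minus strand), the member of largest difference, which holds none in the spellings searched, and Bub3 (chr7:131560120-131560369, plus strand) and Cenpa (chr5:30666636-30666885, plus strand), the members of smallest rise and of opposite direction. Capitals mark CHR letters, spelled TTTGAA in the usual form and TTCGAA in a rarer one, the CCAAT box, spelled as its name, and E2F-like letters, spelled TTCCCGC in one form and TTGGCGC in the other. Both strands were searched, so a motif may stand reversed and complemented. Sequences run 5′ to 3′ on the gene's strand.
Cdk1: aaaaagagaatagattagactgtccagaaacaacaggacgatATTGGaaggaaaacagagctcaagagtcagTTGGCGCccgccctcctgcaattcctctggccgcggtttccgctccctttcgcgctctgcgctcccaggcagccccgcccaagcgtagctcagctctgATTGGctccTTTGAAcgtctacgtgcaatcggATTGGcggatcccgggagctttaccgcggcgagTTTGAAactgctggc
Cdc20: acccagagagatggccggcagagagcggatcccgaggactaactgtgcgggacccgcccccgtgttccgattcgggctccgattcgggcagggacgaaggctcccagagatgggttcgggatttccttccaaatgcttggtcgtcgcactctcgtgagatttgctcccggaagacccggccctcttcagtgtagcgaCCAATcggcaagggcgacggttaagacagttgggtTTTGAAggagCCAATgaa
Ube2c: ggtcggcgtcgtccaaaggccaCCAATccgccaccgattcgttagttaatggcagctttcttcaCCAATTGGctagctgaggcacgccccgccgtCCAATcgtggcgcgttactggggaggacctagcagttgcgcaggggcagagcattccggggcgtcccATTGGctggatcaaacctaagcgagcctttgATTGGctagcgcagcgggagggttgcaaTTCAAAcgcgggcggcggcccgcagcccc
Ccnb1: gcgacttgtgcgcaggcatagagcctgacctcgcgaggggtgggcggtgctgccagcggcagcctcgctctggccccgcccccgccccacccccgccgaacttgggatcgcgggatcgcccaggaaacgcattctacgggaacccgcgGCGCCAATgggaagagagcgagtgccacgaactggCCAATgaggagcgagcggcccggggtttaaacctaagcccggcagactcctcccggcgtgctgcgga
Bub3: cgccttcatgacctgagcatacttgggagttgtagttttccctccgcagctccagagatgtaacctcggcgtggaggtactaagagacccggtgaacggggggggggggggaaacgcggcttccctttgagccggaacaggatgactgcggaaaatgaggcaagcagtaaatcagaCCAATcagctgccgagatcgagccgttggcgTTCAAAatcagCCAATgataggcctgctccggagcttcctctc
Cenpa: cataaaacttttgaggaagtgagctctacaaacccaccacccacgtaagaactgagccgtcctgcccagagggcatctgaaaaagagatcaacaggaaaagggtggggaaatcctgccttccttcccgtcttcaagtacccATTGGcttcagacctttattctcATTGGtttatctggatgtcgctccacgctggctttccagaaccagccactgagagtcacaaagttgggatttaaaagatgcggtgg

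A CHR stood in the 300-base window of 25 of the 31 members (80.6%), against 19.2% of all 32851 promoters in the table and 14.1% of the 12925 promoters of genes tested in the DN3 comparison. CCAAT boxes were in 24 members (77.4%), against 37.4% of both backgrounds. Both motifs together were in 22 members (71%), against 7.52% of all promoters and 5.78% of those of tested genes. E2F-like letters were in 4 members (12.9%, against 6.81% of all promoters and 11.7% of those of tested genes), and each of these 4 held TTGGCGC. The 30 DNA replication genes with a promoter entry held the motifs in other shares: a CHR in 6 (20%), a CCAAT box in 18 (60%) and E2F-like letters in 19 (63.3%). Here and below, a member or replication gene counts when any of its RefSeq entries holds the motif (34 entries for the 31 members). The shares of all promoters and of those of tested genes are over single entries. These counts are a description with no test, and a match of letters is not a bound site.

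The CHR often lay just after the start: 16 members (51.6%) had one in the first 50 bases, against 2.46% of all promoters. Cdk1 held CHR letters 71 and 15 bases before the start with CCAAT boxes at 208, 80 and 48 bases, and E2F-like letters at 178 bases. Cdc20 held a CHR 18 bases before the start between CCAAT boxes at 53 and 8 bases. In Ube2c the CHR stood at 29 bases, with 6 CCAAT boxes, and in the first of the Bub3 entries at 43 bases with CCAAT boxes at 74 and 32. Cenpa held its CHR 16 bases after the start and CCAAT boxes 109 and 86 bases before it. Ccnb1 held CCAAT boxes at 99 and 67 bases, the first of them sharing bases with an E2F-like match at 102, and no CHR in either spelling searched.

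**Figure D1:**
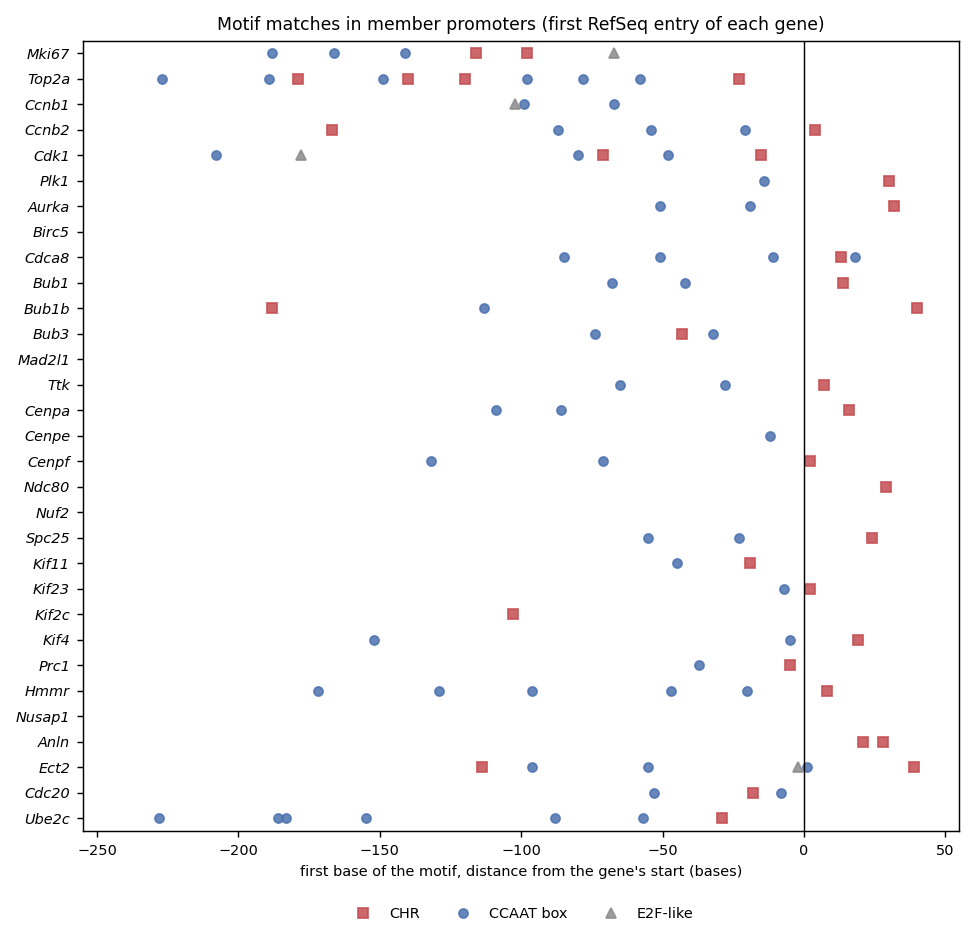
Motif matches in the promoters of the 31 members with a RefSeq entry, by distance in bases from the gene start (vertical line), for the first entry of each gene; squares are CHR, circles CCAAT boxes and triangles E2F-like letters. Most rows pair a CHR near the start with CCAAT boxes before it, and Birc5, Mad2l1, Nuf2 and Nusap1 have no match.

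Levels were then compared between DN3 cells and all lung ILC2. All 39 members passed the filter on low counts. By the quasi-likelihood test of edgeR with Benjamini-Hochberg (BH) adjustment over 15132 genes, 38 members were higher in DN3 cells and 1, Cenpa, was lower. Of all genes tested, 36.7% were called higher and 42.1% lower, so a call alone is common in this comparison. All 38 were higher by at least 1 log2 unit, as were 20.5% of all genes. The median log2 fold change of the members was 2.20 (range -0.49 to 3.24), and that of all genes -0.09. No member's DN3 libraries overlapped the lung libraries, where 31.5% of all genes lay wholly above and 37.3% wholly below. In bulk RNA, fewer cells in division and less of these RNAs per dividing cell cannot be told apart. Markers of lung epithelium moved with tissue too (11 of 12 lower in DN3 cells, summed at 309 to 2238 CPM in the lung libraries), and their part in these values was not tested.

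**Figure D2:**
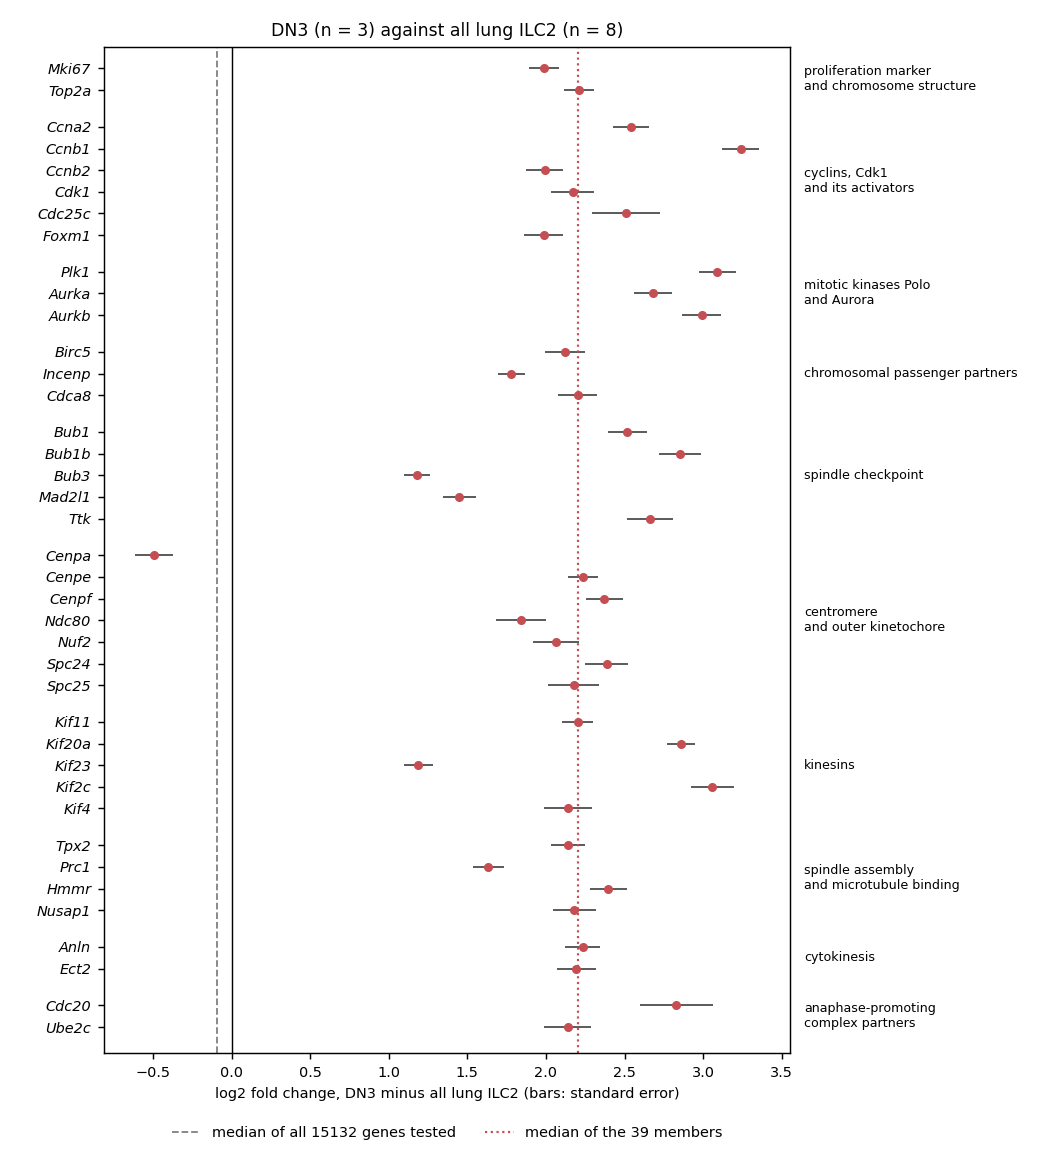
Log2 fold change of each member in DN3 cells against all lung ILC2, with its standard error, ordered by role; positive values are higher in DN3. All members but Cenpa lie to the right of 1 log2 unit, from Bub3 (1.18) to Ccnb1 (3.24), and Cenpa lies at -0.49.

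Mki67, the gene of the proliferation marker Ki-67 that coats mitotic chromosomes, measured 772, 747 and 713 CPM in DN3 libraries 1 to 3, 175, 209, 151, 175 and 215 CPM in ZsGreen-negative libraries 1 to 5, and 167, 238 and 203 CPM in ZsGreen-positive libraries 1 to 3. Every DN3 library lay above every lung library by a wide gap. Mki67 was 3.97-fold higher in DN3 (log2 fold change 1.99 ± 0.10 SE, adjusted p = 3.69e-14 by the edgeR quasi-likelihood test). Top2a, the topoisomerase that untangles sister chromatids, measured 837, 782 and 762 CPM in DN3 libraries 1 to 3, 157, 194, 138, 198 and 187 CPM in ZsGreen-negative libraries 1 to 5, and 144, 177 and 207 CPM in ZsGreen-positive libraries 1 to 3. The groups again stood apart, and the lung groups overlapped each other. Its rise was 4.62-fold (2.21 ± 0.10 log2 units).

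Among cyclins, Cdk1 and its activators, all 6 members rose (median log2 fold change 2.34). Ccnb1, cyclin B1, had the largest difference of the whole set and measured 143, 144 and 126 CPM in DN3 libraries 1 to 3, 11.4, 20.8, 10.3, 17 and 15.8 CPM in ZsGreen-negative libraries 1 to 5, and 12.2, 15.4 and 15.3 CPM in ZsGreen-positive libraries 1 to 3. Its DN3 level was 9.44 times that of lung ILC2 (log2 fold change 3.24 ± 0.12 SE, adjusted p = 6.57e-16 by the edgeR quasi-likelihood test). Its promoter, shown above, was one of 6 without CHR letters in the spellings searched. Cdk1, the kinase that drives entry into mitosis, measured 103, 97.3 and 94 CPM in DN3 libraries 1 to 3, 14.9, 29.1, 19.5, 24.3 and 20.8 CPM in ZsGreen-negative libraries 1 to 5, and 16.9, 24.4 and 27.9 CPM in ZsGreen-positive libraries 1 to 3. No lung library came near the DN3 libraries, and the rise was 4.5-fold (2.17 ± 0.14 log2 units). Foxm1, a transcription factor of G2 and mitosis genes, measured 117, 113 and 111 CPM in DN3 libraries 1 to 3, 25.6, 32.3, 20.7, 31.3 and 29.7 CPM in ZsGreen-negative libraries 1 to 5, and 21.6, 32.3 and 39.2 CPM in ZsGreen-positive libraries 1 to 3. It had the smallest rise of the group, 3.96-fold (1.99 ± 0.12 log2 units), with no overlap. Ccna2 (cyclin A2, 2.54), Ccnb2 (cyclin B2, 1.99) and Cdc25c, the phosphatase that activates Cdk1 (2.51), gave log2 fold changes between those of Foxm1 and Ccnb1. Part of Ccna2 and Cdc25c lies over genes of the opposite strand (12.5% and 12.7% of exon bases), and whether counting used the strand is not given in the sources used here, so their values are less certain. Over all libraries Exosc9, which lies over Ccna2, had 2208 counts, and Gm3550, which lies over Cdc25c, had 29.

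**Figure D3:**
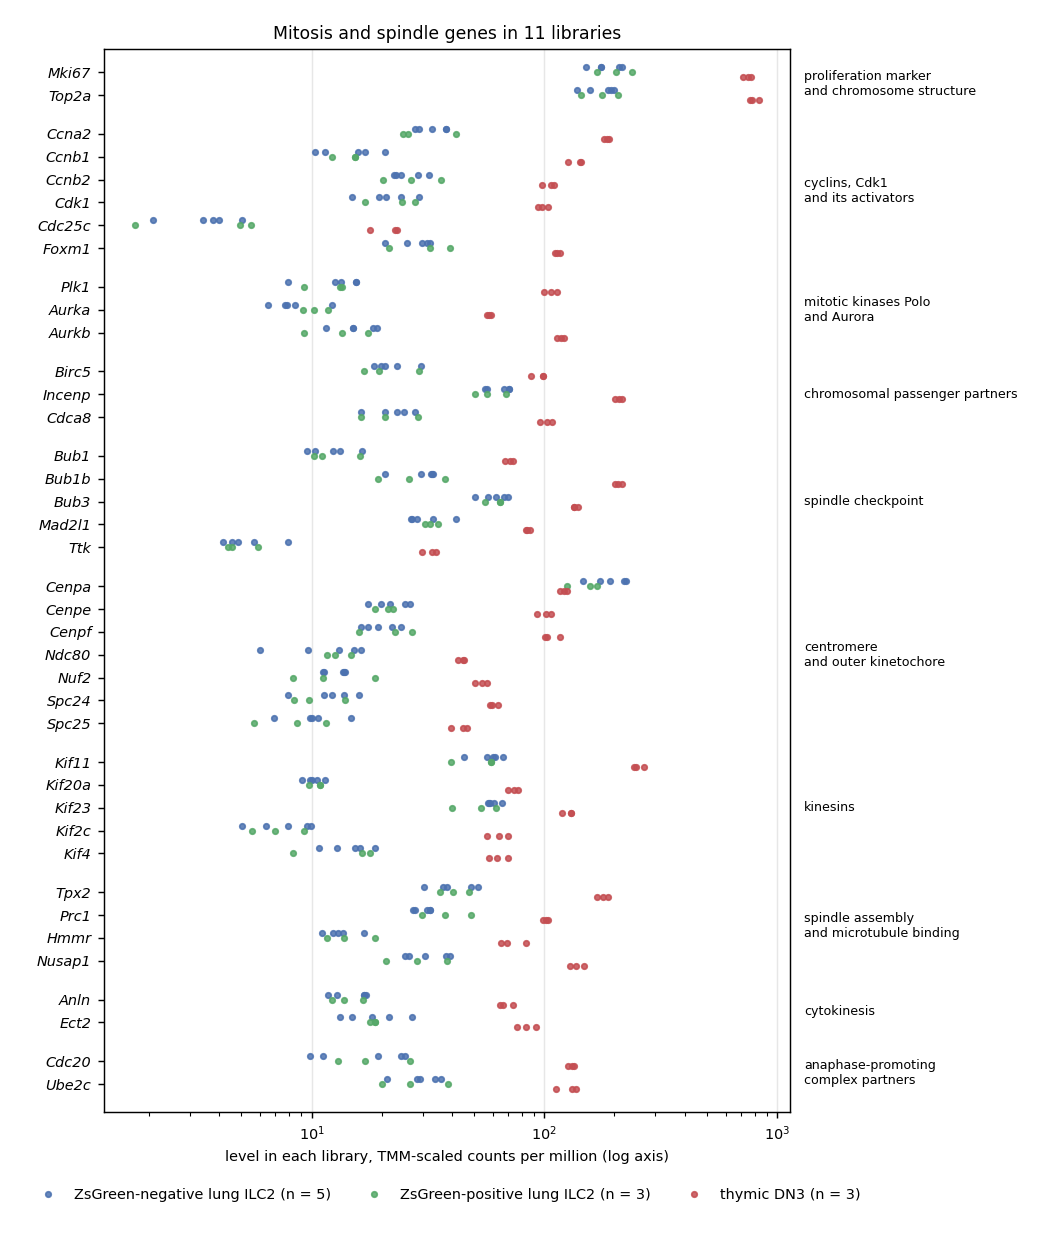
Level of each member in every library in CPM on a log axis, ordered by role, with symbols for the ZsGreen-negative (n = 5), ZsGreen-positive (n = 3) and DN3 (n = 3) libraries. DN3 points lie to the right of the lung points in 38 rows, the lung groups overlap in all rows, and in the Cenpa row the DN3 points (117 to 125 CPM) lie just left of the lung points.

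All 3 kinases of the Polo and Aurora families rose, with the highest median of any role with 3 or more members (2.99). Plk1, the Polo kinase of centrosomes and kinetochores, measured 113, 107 and 99.4 CPM in DN3 libraries 1 to 3, 12.6, 15.5, 7.93, 15.5 and 13.3 CPM in ZsGreen-negative libraries 1 to 5, and 9.32, 13.2 and 13.6 CPM in ZsGreen-positive libraries 1 to 3. Its 8.52-fold rise (3.09 ± 0.12 log2 units) was second only to that of Ccnb1. Aurkb, the Aurora kinase that corrects wrong attachments at the centromere, measured 122, 117 and 113 CPM in DN3 libraries 1 to 3, 15.1, 19.1, 11.5, 18.3 and 15 CPM in ZsGreen-negative libraries 1 to 5, and 9.32, 13.6 and 17.5 CPM in ZsGreen-positive libraries 1 to 3. It rose 7.94-fold (2.99 ± 0.12 log2 units). Aurka, the Aurora kinase of the spindle poles, measured 56.9, 58.7 and 58.1 CPM in DN3 libraries 1 to 3, 8.48, 12.3, 6.48, 7.65 and 7.81 CPM in ZsGreen-negative libraries 1 to 5, and 9.18, 10.3 and 11.8 CPM in ZsGreen-positive libraries 1 to 3. The DN3 libraries were nearly equal to each other, and the rise was 6.41-fold (2.68 ± 0.12 log2 units).

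The partners of Aurkb in the chromosomal passenger complex rose less than the kinase itself, with a median log2 fold change of 2.12; this difference between genes was not tested. Birc5 (survivin) measured 98.2, 98.8 and 88 CPM in DN3 libraries 1 to 3, 18.5, 23.3, 19.9, 29.5 and 20.6 CPM in ZsGreen-negative libraries 1 to 5, and 16.7, 19.4 and 29 CPM in ZsGreen-positive libraries 1 to 3. Cdca8 (borealin) measured 103, 108 and 95.7 CPM in DN3 libraries 1 to 3, 20.6, 27.8, 16.3, 25 and 23.4 CPM in ZsGreen-negative libraries 1 to 5, and 16.3, 20.7 and 28.8 CPM in ZsGreen-positive libraries 1 to 3. For both, every DN3 library lay far above every lung library, and their log2 fold changes were 2.12 ± 0.13 and 2.20 ± 0.13. Incenp, the scaffold of the complex, measured 202, 209.6 and 217 CPM in DN3 libraries 1 to 3, 55.7, 67.1, 56.4, 70.7 and 70.5 CPM in ZsGreen-negative libraries 1 to 5, and 50.5, 56.8 and 68.7 CPM in ZsGreen-positive libraries 1 to 3. Its rise was the smallest of the complex, 3.43-fold (1.78 ± 0.09 log2 units), with no overlap between tissues.

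The 5 spindle checkpoint genes all rose, by 1.18 to 2.85 log2 units (median 2.52). Bub1b, which encodes the checkpoint inhibitor BubR1, measured 216, 208 and 201 CPM in DN3 libraries 1 to 3, 29.4, 32.7, 20.7, 32.8 and 33.2 CPM in ZsGreen-negative libraries 1 to 5, and 19.4, 26.2 and 37.3 CPM in ZsGreen-positive libraries 1 to 3. It rose 7.22-fold (2.85 ± 0.13 log2 units). Bub1, the checkpoint kinase at kinetochores, measured 71, 73 and 67.8 CPM in DN3 libraries 1 to 3, 9.51, 16.4, 10.3, 13.3 and 12.3 CPM in ZsGreen-negative libraries 1 to 5, and 11.1, 10.3 and 16.1 CPM in ZsGreen-positive libraries 1 to 3, a log2 fold change of 2.52 ± 0.12. Bub3, the shared partner of both, measured 135, 139 and 134 CPM in DN3 libraries 1 to 3, 61.8, 69.5, 50.2, 67.4 and 57 CPM in ZsGreen-negative libraries 1 to 5, and 64.5, 55.6 and 64.7 CPM in ZsGreen-positive libraries 1 to 3. It had the smallest rise of the 38, 2.27-fold (1.18 ± 0.08 log2 units, adjusted p = 1.11e-11 by the edgeR quasi-likelihood test), yet its groups did not overlap. Ttk, the kinase MPS1 (2.66), and Mad2l1, which encodes MAD2 (1.45), gave log2 fold changes near the top and the bottom of the group.

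At the centromere and outer kinetochore, 6 of 7 members rose and Cenpa fell. Spc24, Spc25, Ndc80 and Nuf2 together form the NDC80 complex, which grips microtubules. Spc24 measured 58.6, 63 and 59.6 CPM in DN3 libraries 1 to 3, 7.96, 16.1, 11.3, 13.8 and 12.3 CPM in ZsGreen-negative libraries 1 to 5, and 8.45, 9.72 and 13.9 CPM in ZsGreen-positive libraries 1 to 3, a rise of 2.39 ± 0.14 log2 units, the largest of the 4. The others rose by 2.18 (Spc25), 1.84 (Ndc80) and 2.06 (Nuf2) log2 units. Cenpe, the kinetochore motor (2.24), and Cenpf, a large kinetochore protein (2.37), rose by similar amounts.

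Cenpa, the histone H3 variant that marks the centromere, measured 121, 125 and 117 CPM in DN3 libraries 1 to 3, 191, 147, 225, 219.8 and 173 CPM in ZsGreen-negative libraries 1 to 5, and 126, 169 and 156 CPM in ZsGreen-positive libraries 1 to 3. DN3 libraries were the lowest of all, but only just: the highest of them (125.0 CPM) stood beside ZsGreen-positive library 1 (125.5 CPM). Mean levels were 176 ± 34.5 CPM in lung ILC2 (SD, n = 8) and 121 ± 3.89 CPM in DN3 cells (SD, n = 3), a log2 fold change of -0.49 ± 0.12 (adjusted p = 0.00102 by the edgeR quasi-likelihood test). Scaling by library totals alone ended this call (log2 fold change -0.12, adjusted p = 0.321 by edgeR). Against ZsGreen-negative cells alone Cenpa was called lower (log2 fold change -0.62 ± 0.13, adjusted p = 2.45e-04 by edgeR), and against ZsGreen-positive cells alone it was not (log2 fold change -0.28 ± 0.14, adjusted p = 0.0818 by edgeR). No gene of the annotation used for lengths (GENCODE M21) overlaps its exons. Hjurp and Oip5, which act in loading CENP-A onto centromeres and were singled out after their values were seen, moved the other way: Hjurp rose by 1.44 ± 0.07 log2 units and Oip5 by 2.55 ± 0.22, though Oip5 overlaps Nusap1.

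All 5 kinesins rose (median 2.20). Kif2c, the microtubule depolymerase MCAK, measured 69.6, 63.8 and 56.5 CPM in DN3 libraries 1 to 3, 6.4, 9.56, 5.04, 9.98 and 7.96 CPM in ZsGreen-negative libraries 1 to 5, and 5.53, 6.97 and 9.27 CPM in ZsGreen-positive libraries 1 to 3. It rose 8.32-fold (3.06 ± 0.14 log2 units). Kif11, the motor Eg5 that pushes spindle poles apart, measured 269, 247 and 243 CPM in DN3 libraries 1 to 3, 56.7, 66.6, 45.2, 60.2 and 61.2 CPM in ZsGreen-negative libraries 1 to 5, and 39.6, 58.9 and 59.3 CPM in ZsGreen-positive libraries 1 to 3, a rise of 2.20 ± 0.10 log2 units. Kif23, the motor of the central spindle in cytokinesis, measured 131, 129.5 and 119 CPM in DN3 libraries 1 to 3, 57.6, 60.8, 57.2, 65.6 and 58.3 CPM in ZsGreen-negative libraries 1 to 5, and 40.2, 62 and 53.7 CPM in ZsGreen-positive libraries 1 to 3. Its rise, 2.28-fold (1.19 ± 0.09 log2 units), was the smallest of the kinesins. Kif4, a chromosome-bound motor, rose by 2.14 log2 units, and Kif20a, a motor of cytokinesis, by 2.86; 29.3% of the exon bases of Kif20a lie over Cdc23 on the other strand and 15.1% of those of Kif4 over Pdzd11.

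Spindle assembly genes rose in all 4 cases (median 2.16). Hmmr, a spindle pole protein, measured 83.1, 69.1 and 65 CPM in DN3 libraries 1 to 3, 13, 16.8, 11, 12.3 and 13.6 CPM in ZsGreen-negative libraries 1 to 5, and 11.7, 13.8 and 18.7 CPM in ZsGreen-positive libraries 1 to 3, and rose by 2.40 ± 0.12 log2 units. Prc1, which bundles the microtubules of the central spindle, measured 101, 104 and 98.2 CPM in DN3 libraries 1 to 3, 27.3, 31.2, 27.9, 32.3 and 32.3 CPM in ZsGreen-negative libraries 1 to 5, and 29.9, 37.4 and 48.2 CPM in ZsGreen-positive libraries 1 to 3. It showed the smallest rise of this group (1.63 ± 0.10 log2 units), and 11.1% of its exon bases lie over Rccd1. Tpx2, an activator of Aurora A (2.14), and Nusap1, which binds spindle microtubules (2.18), lay between them.

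The cytokinesis genes Anln (anillin of the contractile ring) and Ect2 (the activator of RhoA at the cleavage furrow) rose by close amounts. Anln measured 73.4, 64.3 and 66.6 CPM in DN3 libraries 1 to 3, 12.8, 17.1, 11.8, 16.8 and 16.7 CPM in ZsGreen-negative libraries 1 to 5, and 12.2, 16.7 and 13.8 CPM in ZsGreen-positive libraries 1 to 3. Ect2 measured 91.9, 83.6 and 76.5 CPM in DN3 libraries 1 to 3, 21.5, 26.9, 13.2, 15 and 18.2 CPM in ZsGreen-negative libraries 1 to 5, and 17.8, 18.7 and 18.8 CPM in ZsGreen-positive libraries 1 to 3. Both kept DN3 and lung libraries well apart, with log2 fold changes of 2.23 ± 0.11 and 2.19 ± 0.12. Of the partners of the anaphase-promoting complex, Cdc20, its activator in mitosis, measured 134, 131 and 127 CPM in DN3 libraries 1 to 3, 11.2, 24.2, 9.85, 25.1 and 19.3 CPM in ZsGreen-negative libraries 1 to 5, and 16.9, 13 and 26.5 CPM in ZsGreen-positive libraries 1 to 3. Lung libraries of Cdc20 varied more than those of most members, from 9.85 to 26.5 CPM, and the rise was 7.11-fold (2.83 ± 0.23 log2 units). Ube2c, the ubiquitin-conjugating enzyme of the complex, measured 137, 132 and 112 CPM in DN3 libraries 1 to 3, 21.1, 36.1, 28.3, 33.9 and 29.2 CPM in ZsGreen-negative libraries 1 to 5, and 20.1, 26.6 and 38.5 CPM in ZsGreen-positive libraries 1 to 3. It rose 4.4-fold (2.14 ± 0.15 log2 units); 22.8% of its exon bases lie over Tnnc2, which had 0 counts.

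The separate contrasts with each lung group share the DN3 libraries and gave like values. Against ZsGreen-negative cells 38 members were called higher and 1 lower by edgeR (35.5% and 41.2% of all genes), with a median log2 fold change of 2.19. Against ZsGreen-positive cells 38 were called higher and 0 lower (34.8% and 40.3% of all genes), with a median of 2.24. No member had a negative change with an unadjusted p under 0.05 in the latter, and DESeq2 and limma voom also called 0 lower.

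Members with and without CHR letters in the spellings searched had like medians. The 25 with a CHR had a median log2 fold change of 2.20 (range -0.49 to 3.09), and the 6 without one, Ccnb1, Birc5, Mad2l1, Cenpe, Nuf2 and Nusap1, a median of 2.15 (1.45 to 3.24). Each range held both large and small changes, and no test was made. Other spellings of the CHR were not searched, so the split holds only for TTTGAA and TTCGAA.

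Summed over the 39 members, levels were 1403 ± 153 CPM in ZsGreen-negative (SD, n = 5), 1365 ± 225 CPM in ZsGreen-positive (SD, n = 3) and 5426 ± 220 CPM in DN3 libraries (SD, n = 3). The 38 DNA replication genes summed to 1588 ± 214, 1527 ± 87.5 and 7007 ± 160 CPM. The ratio of mitotic to replication sums was 0.888 ± 0.0666 over the lung libraries (SD, n = 8) and 0.774 ± 0.0141 in DN3 libraries (SD, n = 3). Cenpa, the only member lower in DN3, made up 176 of 1389 CPM on average in lung libraries and 121 of 5426 CPM in DN3 libraries. Without Cenpa the members summed to 1213 ± 171 CPM in lung (SD, n = 8) and 5305 ± 217 CPM in DN3 libraries (SD, n = 3). The replication sums beside these were 1565 ± 171 and 7007 ± 160 CPM. The ratio above includes Cenpa and is a description with no test. Replicates of DN3 were close to each other: the median coefficient of variation of the members was 5.11% in DN3, 19.3% in ZsGreen-negative and 24.4% in ZsGreen-positive libraries. The DN3 libraries share a batch date, while each lung group spans both lung dates and has lower levels of all members but Cenpa. The part of batch and level in these coefficients was not tested.

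**Figure D4:**
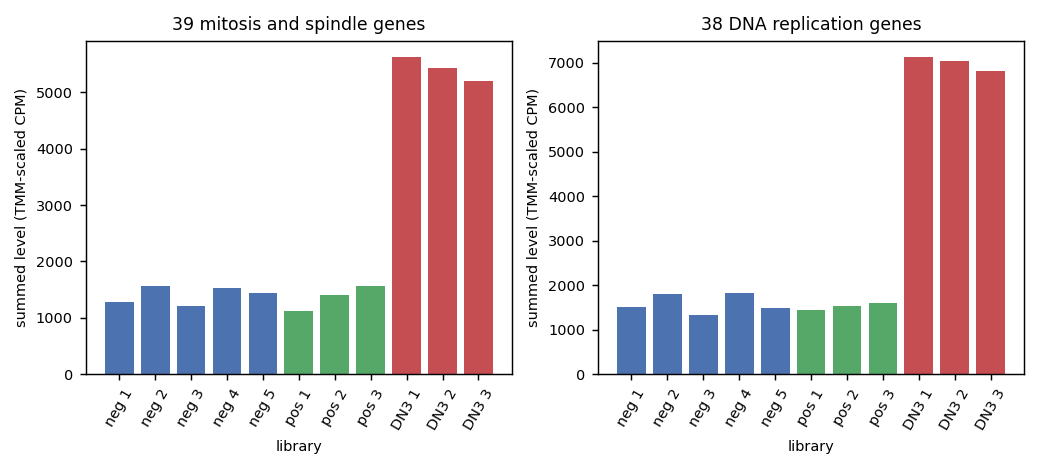
Summed CPM of the 39 mitosis and spindle members and of the 38 DNA replication genes in each library, with 1 bar per library (neg, ZsGreen-negative; pos, ZsGreen-positive). The DN3 libraries stand several-fold above the lung libraries in both sums, and the ZsGreen-negative and ZsGreen-positive libraries overlap.

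Other genes of the cell cycle were taken from lists by function. Of 50 further mitotic genes, 49 were higher in DN3 cells and 1 lower by edgeR (median log2 fold change 2.15). The 4 of smallest p were Knl1, the kinetochore scaffold (2.89), Sgo1, which protects centromeric cohesin (3.39), Ckap2l (2.88) and Pbk, a mitotic kinase (3.01). Pttg1, which encodes securin, the inhibitor of separase, was the exception, with 22.4 ± 3.2 CPM in lung ILC2 (SD, n = 8) and 9.14 ± 0.973 CPM in DN3 cells (SD, n = 3) (-1.27 ± 0.14 log2 units, adjusted p = 3.96e-08 by edgeR). Its DN3 libraries lay wholly below the lung libraries, as those of Cenpa did. Of 17 condensin and cohesin genes 16 were higher (median 1.22). Those of smallest p were Smc4 (1.94), Ncaph (2.25), Smc2 (1.68) and Ncapg2 (2.15), all of condensin, and the largest differences were those of Cdca5 (3.09) and Esco2 (2.95), which act on cohesin. Nipbl, the cohesin loader, was called lower (-0.27), a call lost under every other scaling and with the sign turned by library totals only (0.10). Of 16 genes of the anaphase-promoting complex list, 12 were higher and 2 lower (median 0.58), beside 2.83 and 2.14 for Cdc20 and Ube2c. Anapc5 (1.07), Cdc16 (1.14), Cdc26 (1.12) and Cdc27 (1.01) had the smallest p, and Anapc2 (-0.30) and Anapc16 (-0.31) were called lower, though library totals only turned both signs (0.07 and 0.06). Upper-quartile scaling also ended the call for Anapc16 (adjusted p = 0.0545 by edgeR).

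All 38 DNA replication genes were higher in DN3 cells (median 2.15), with Mcm7 (2.81), Mcm10 (3.50) and Mcm2 (2.20) of the replicative helicase and its loading, and Uhrf1, which maintains DNA methylation (3.88), of smallest p. Among 22 regulators of the E2F, MuvB and B-Myb families, 15 were higher and 4 lower (median 0.96). Mybl2, B-Myb itself, rose from 13.2 to 102 CPM (2.98 ± 0.11 log2 units), and Tfdp1, the partner of E2F proteins, rose by 2.01. Rb1 fell from 351 to 42.1 CPM (-3.03 ± 0.10) and Rbl2, which encodes p130, from 264 to 37.5 CPM (-2.78 ± 0.09); both are repressors of cell cycle genes. The third gene of that family, Rbl1 (p107), rose by 1.07, from 71.9 to 148 CPM. MuvB subunits went both ways: Lin9 (1.67), Rbbp4 (0.71) and Lin37 (0.33) were called higher, while Lin54, which binds the CHR, fell by 1.48 and Lin52 by 0.63 log2 units, where library totals only ended the call for Lin52 (adjusted p = 0.128 by edgeR). Of 16 tested G1 cyclins, their kinases and inhibitors of the cycle, 6 were higher and 9 lower (median -0.48), beside 36.7% and 42.1% of all genes, so the share called higher was near that background. Scaling by library totals only gave 6 higher and 7 lower, with a median of -0.11. Those higher were Cdk6 (3.34), Cdk4 (1.96) and Cdk2 (0.89), kinases of G1 and S phase, and the cyclins Ccne1 (2.36), Ccne2 (2.76) and Ccnd3 (0.46). The 9 lower included the antiproliferative genes Btg1 (-4.83) and Btg2 (-3.31) and the CDK inhibitor Cdkn1a (-3.58). The rest of the 9 are not named here.

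Levels in lung ILC2 were compared between ZsGreen-positive and ZsGreen-negative cells with batch in the model. By the edgeR quasi-likelihood test 0 of 39 members were called, where 4.52% of all 13771 genes were. At an unadjusted p under 0.05 edgeR gave 1 member, Prc1, where 16.8% of all genes passed. DESeq2 and limma voom called 0 members and gave 2 each at that unadjusted threshold. The median log2 fold change was -0.09 (all genes -5.78e-04), with 13 members above 0 and 26 below. For 0 members did the lung groups stand apart without overlap, as they did for 10.3% of all genes. The 95% interval of every member lay within a 2-fold change either way, and that of 30 members within 1.5-fold, with extremes of -0.83 and 0.90 log2 units. These intervals reflect spread among libraries, part or all of which may be technical, so they do not bound a difference between the cell populations. Each is for a single member, from a fit that takes the difference to be the same in both batches. The batches are described apart below.

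**Figure D5:**
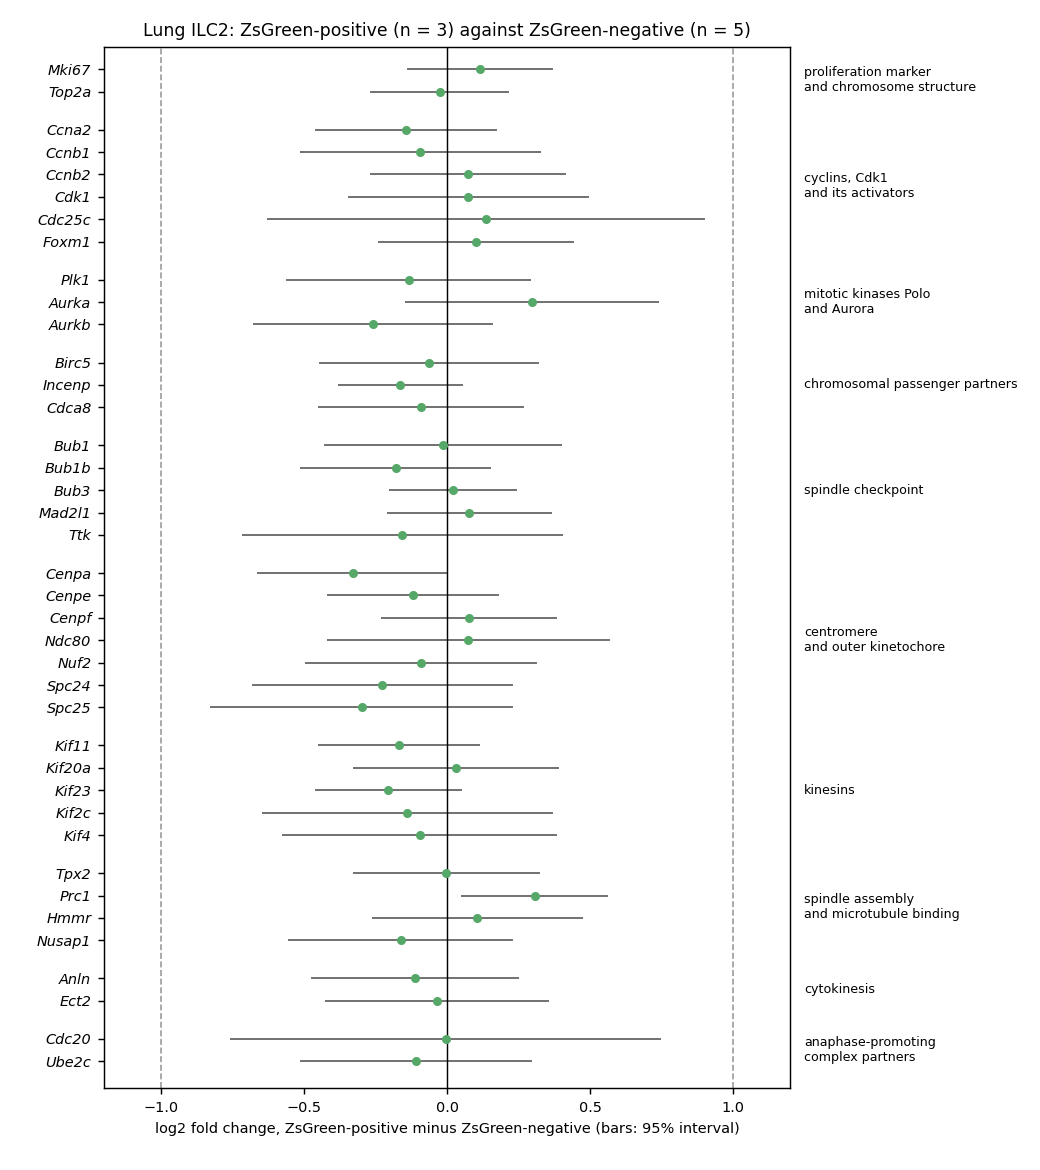
Log2 fold change of each member in ZsGreen-positive against ZsGreen-negative lung ILC2 with its 95% interval, ordered by role. Estimates run from -0.33 (Cenpa) to 0.31 (Prc1), and all intervals lie within 1 log2 unit of 0.

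The 4 members of smallest p did not pass the adjusted test. Prc1 measured 27.3, 31.2, 27.9, 32.3 and 32.3 CPM in ZsGreen-negative libraries 1 to 5 and 29.9, 37.4 and 48.2 CPM in ZsGreen-positive libraries 1 to 3. Only ZsGreen-positive libraries 2 and 3 lay above the ZsGreen-negative range, and the difference was 0.31 ± 0.12 SE, interval 0.05 to 0.56 (log2 scale, adjusted p = 0.189 by the edgeR quasi-likelihood test). Cenpa measured 191, 147, 225, 219.8 and 173 CPM in ZsGreen-negative libraries 1 to 5 and 126, 169 and 156 CPM in ZsGreen-positive libraries 1 to 3, with ZsGreen-positive library 1 the lowest of all. Its difference was -0.33 ± 0.15 SE, interval -0.67 to 0.00427 (adjusted p = 0.305 by edgeR), and a fit without the filter on low counts called it (log2 fold change -0.34, adjusted p = 0.0127 by edgeR). Kif23 measured 57.6, 60.8, 57.2, 65.6 and 58.3 CPM in ZsGreen-negative libraries 1 to 5 and 40.2, 62 and 53.7 CPM in ZsGreen-positive libraries 1 to 3, and Incenp 55.7, 67.1, 56.4, 70.7 and 70.5 CPM in ZsGreen-negative libraries 1 to 5 and 50.5, 56.8 and 68.7 CPM in ZsGreen-positive libraries 1 to 3. For Kif23, ZsGreen-positive libraries 1 and 3 lay below every ZsGreen-negative library and library 2 within their range, and for Incenp only ZsGreen-positive library 1 lay below it (-0.21 ± 0.12 SE, interval -0.46 to 0.05 for Kif23, -0.16 ± 0.10 SE, interval -0.38 to 0.05 for Incenp).

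Differences between lung libraries ran across many members at once. ZsGreen-positive library 1 was the lowest of the 8 for 16 members, ZsGreen-negative library 3 for 16 and ZsGreen-negative library 1 for 6. ZsGreen-negative library 2 was the highest for 19 members and ZsGreen-positive library 3 for 13. Both groups therefore held a high and a low library. Cenpa did not follow this order: it was highest in ZsGreen-negative library 3, and ZsGreen-negative library 2 ranked 7th. Within the 2024 batch (4 against 2 libraries) 7 of 39 members had a higher mean log2(CPM + 1) in ZsGreen-positive cells, with a median difference of -0.16. In the 2025 batch (1 against 1 library, so with no test) 30 did, with a median of 0.18, and 14 members had the same sign in both batches.

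Markers of other lung cells were called higher in ZsGreen-positive cells by edgeR for 1 of 12 epithelial, 3 of 8 endothelial, 1 of 7 stromal and 0 of 7 macrophage and dendritic cell genes tested in the lung fit. At an unadjusted p under 0.05 edgeR gave 9 epithelial, 7 endothelial, 2 stromal and 2 macrophage and dendritic cell genes, where 16.8% of all genes passed. Of the same 4 lists, in this order, DESeq2 called 5, 4, 2 and 1 genes, and limma voom 9, 6, 6 and 1. The shares of all genes that DESeq2 and limma voom called are not given here. Summed levels of 12 epithelial markers were 309 to 858 CPM in ZsGreen-negative and 823 to 2238 CPM in ZsGreen-positive libraries, of stromal markers 120 to 514 and 396 to 923 CPM, of endothelial markers 70.7 to 126 and 125 to 152 CPM, and of macrophage and dendritic cell markers 58.3 to 156 and 115 to 247 CPM. Their part in the values of the members was not tested. The related lists gave no call in the lung by edgeR: 0 of 50 further mitotic genes (2 at an unadjusted p under 0.05), 0 of 17 condensin and cohesin genes (1) and 0 of 38 DNA replication genes (2), with 0 calls by DESeq2 and by limma voom in each. The E2F, MuvB and B-Myb list had 0 calls by edgeR (3 at an unadjusted p under 0.05) and 1 each by DESeq2 and limma voom. Of 16 anaphase-promoting complex genes, 0 were called by edgeR, DESeq2 or limma voom (1 at an unadjusted p under 0.05 by edgeR), and of 16 G1 genes 0 by edgeR (4 unadjusted), 1 by DESeq2 and 0 by limma voom.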

How the data were processed

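RNA was isolated with a PicoPure kit and libraries were made with a Watchmaker mRNA kit, per the labels. The authors deposited raw whole-number counts per gene. GRCm39 and DESeq2 are named in the submitters' processing notes. The aligner, counter, annotation and strand use were not given in the sources used here. The members and gene lists were chosen with earlier results of these data known.

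Counts were tested with edgeR 4.0.16 in R 4.3.3 (quasi-likelihood F test, TMM, filterByExpr with a minimum count of 10, BH threshold 0.05). The lung comparison fitted 8 libraries with batch as a term. DN3 comparisons fitted all 11 libraries without one, and all lung ILC2 means both groups weighted by library number. Levels are CPM, TMM-scaled over 11 libraries. Replicate pairs differed by more than sampling noise (16 pairs, chi-square 1.72 to 13.4 per degree of freedom). Alternatives used DESeq2 1.42.0, limma 3.58.1, other scalings, no filter and left-out libraries. The code was tested on simulated data. There the lung comparison recovered 41.5% of 1.5-fold and 72.5% of 2-fold changes. The comparison of DN3 with all lung ILC2 recovered 49.5% and 73%.

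Values per library were given for the members of largest and smallest fold change in each role and 13 preset members, for the 4 members of smallest p in the lung, and up to 4 genes of smallest p per related list with called exceptions. Promoters came from RefSeq by symbol, and exon overlaps from GENCODE M21 (GRCm38), another build than that of the counts.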

Additional observations from a re-analysis of the deposited data

How the results depend on the processing

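Calls of higher members in DN3 cells stayed at 38 under all 19 alternatives of the comparison with all lung ILC2, and none of the 39 members reversed its direction there. Among related genes, library totals only turned the signs of Nipbl, Anapc2 and Anapc16. Counts that moved rest on Cenpa alone. Requiring at least 1 log2 unit, or scaling by library totals only, left 0 members lower in DN3 against all lung ILC2 and 0 against ZsGreen-negative cells (1 each as reported). Against ZsGreen-positive cells 0 were lower as reported and 1 without a filter and 1 with only the groups compared in the fit. Leaving out each library in turn gave 0 to 1 there, and 1 came from dropping ZsGreen-negative library 2, as from dropping ZsGreen-positive library 1. In the lung, fitting without the filter gave 1 member lower (0 as reported). The adjusted p of Cenpa by edgeR, DESeq2 or limma ranged from 1.24e-08 to 0.321 in DN3 against all lung ILC2 and from 0.0127 to 0.650 in the lung, where that of Prc1 ranged from 0.0788 to 0.670. Library totals raised the median of all genes in DN3 against all lung ILC2 by 0.37 log2 units and that of the members to 2.57, and upper-quartile scaling raised the former by 0.10.

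Replicate numbers did not pair the samples (correlations of deviations -0.19 to 0.12, and 0 of 3 ZsGreen-positive libraries correlated best with their own number). A fit with the replicate block gave 0 members higher and 0 lower in the lung, with 130 higher and 103 lower of all genes against 323 and 300 without it, and 38 higher in each DN3 comparison. With the block 1 member was lower in DN3 against all lung ILC2, 1 against ZsGreen-negative and 0 against ZsGreen-positive cells. The block joins libraries of different batch dates, such as ZsGreen-negative 3 of 2024 and ZsGreen-positive 3 of 2025. This fit therefore cannot tell whether samples were paired. In the lung the widest 95% intervals were those of Cdc25c (-0.63 to 0.90 log2 units, at 1.75 to 5.52 CPM) and Cdc20 (-0.76 to 0.75, at 9.85 to 26.5 CPM), and the part of depth in them was not tested.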
